A study of Homo sapiens with 32 samples.

Results

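Enzymes that modify or remodel chromatin were followed through the differentiation of human embryonic stem cells toward β-cells, at the level of their transcripts and of the N6-methyladenosine (m6A) carried by those transcripts. Genes were taken by symbol if they belonged to the KMT, SETD, EHMT, EZH, NSD, SUV39H, KDM, HDAC, KAT, CHD, ARID, SMARC, BRD, PRDM or TET series, without antisense genes. This gave 78 of the 7978 genes with counts and 436 of 26104 merged m6A peaks. RefSeq lists 130 protein-coding genes that match the symbols, and the remaining ones, among them SMARCA4, SMARCB1, EZH2, KMT2A, HDAC2, CHD8 and TET2, were not analysed here. One member is Y-linked and enters only the counts of expression calls, which leaves 77 genes with 435 peaks whose values are described. BRD3OS, a neighbour of BRD3 on the opposite strand, and CHD9NB, a neighbour of CHD9, match the symbols but are not known as bromodomain or chromodomain proteins, and reads of overlapping genes cannot be told apart because the use of strand in the counting is not given in the sources used here.

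H1 and MEL1 are established lines of human embryonic stem cells. Each was sampled undifferentiated (S0), as posterior foregut cells (S3), as pancreatic progenitors (S4) and as immature β-like cells (S6), with no genetic change and no treatment other than the directed differentiation in culture. Each line had 2 replicates at each stage, so that a stage had 4 RNA preparations, and every preparation gave an input library and a library of fragments pulled down with an m6A antibody (IP). The study describes the replicates as independent biological samples, and neither it nor the labels say whether they came from separate differentiations, so the p-values measure the spread between these preparations. Stages were populations of cells and not sorted types.

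Input libraries held 2652830 to 6879256 counted reads and IP libraries 2378881 to 15674899, and the members took 0.498% to 1.07% of the input reads. Mitochondrial transcripts took 26.4% to 41.0% of the input reads at S0 and 11.6% to 16.4% at S6, against at most 2.25% of the IP reads at any stage, and of the other input reads the members took 0.757% to 1.27%. The 2 shallowest IP libraries were both from MEL1 at S4. All 7 foregut markers were called higher at S3 than at S0 and 8 of 9 genes of undifferentiated cells were called lower. Of 11 endocrine genes only CHGA, ISL1 and GLIS3 had counts, so the β-like label of S6 rests here on those 3. The lines were not alike within a stage. The summed level of the 4 measured hepatic genes at S3 averaged 447 CPM (input reads scaled to a common library size) in H1 and 30525 CPM in MEL1, that of 8 proliferation genes 1809.5 and 712 CPM, and that of 9 genes of undifferentiated cells 1785 and 543 CPM. At S4 the means in H1 and MEL1 were 173 and 64147 CPM for the hepatic genes, 83.2 and 757 CPM for 5 mesenchyme genes, 1829 and 572 CPM for the undifferentiated, 1332 and 585 CPM for the proliferation and 562 and 67.7 CPM for the 3 endocrine genes. The 5 measured markers of pancreatic progenitors summed to 121 CPM in H1 and 111 CPM in MEL1 at S3 and to 106 and 77.8 CPM at S4, so that they set S4 apart from S0 but not above S3. The 3 measured neuron genes summed to a mean of 3475 CPM in H1 and 516 CPM in MEL1 at S6.

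Chromatin is written, erased, read and moved by separate protein families. Methyltransferases with a SET domain (KMT, SETD, EZH, NSD, SUV39H) place methyl groups on histone lysines and KDM enzymes remove them. KAT enzymes acetylate histones, HDACs deacetylate them and BRD proteins bind the acetylated lysines. CHD and SMARC proteins belong to remodelling complexes that use ATP to move nucleosomes, ARID proteins include DNA-binding subunits of such complexes, PRDM proteins are zinc-finger regulators with a SET-like domain, and TET enzymes oxidise 5-methylcytosine in DNA. Cells that leave pluripotency are known to change several of them together, for instance when silencing by Polycomb is lifted from developmental genes.

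Promoters of 4 members are printed: PRDM1 and KDM6B, whose transcripts had the largest fold changes between S0 and S3, and TET3 and TET1, a pair of enzymes with one activity of which the former rose and the latter fell. Each is the first listed RefSeq window in GRCh38.p14, from 250 bases before to 50 bases after a transcription start, on the plus strand, at chr17:7833967-7834266 for KDM6B, chr6:106086086-106086385 for PRDM1, chr2:73984660-73984959 for TET3 and chr10:68560087-68560386 for TET1. Capitals mark every match, on either strand, to the FOX core (TGTTTA), the GATA core (AGATAA), the CCAAT box (CCAAT), the cAMP response element (TGACGTCA) or the SP1 GC box (GGGCGG).
KDM6B: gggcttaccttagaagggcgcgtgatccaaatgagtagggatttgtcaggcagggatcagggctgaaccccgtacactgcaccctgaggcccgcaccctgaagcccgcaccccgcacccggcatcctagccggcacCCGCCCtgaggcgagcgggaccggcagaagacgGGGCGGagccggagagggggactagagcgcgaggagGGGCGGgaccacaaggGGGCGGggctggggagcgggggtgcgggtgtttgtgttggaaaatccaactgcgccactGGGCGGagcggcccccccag
PRDM1: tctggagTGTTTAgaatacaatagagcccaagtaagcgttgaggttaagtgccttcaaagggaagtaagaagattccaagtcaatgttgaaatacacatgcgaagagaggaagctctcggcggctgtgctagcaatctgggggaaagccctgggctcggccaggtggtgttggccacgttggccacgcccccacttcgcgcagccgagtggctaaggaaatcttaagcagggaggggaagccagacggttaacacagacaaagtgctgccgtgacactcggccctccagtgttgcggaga
TET3: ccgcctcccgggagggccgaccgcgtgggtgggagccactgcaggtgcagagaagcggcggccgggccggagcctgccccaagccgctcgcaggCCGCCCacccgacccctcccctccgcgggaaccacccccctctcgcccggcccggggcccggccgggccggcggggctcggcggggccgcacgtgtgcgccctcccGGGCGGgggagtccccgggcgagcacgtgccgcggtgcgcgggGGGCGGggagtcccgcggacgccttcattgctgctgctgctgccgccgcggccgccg
TET1: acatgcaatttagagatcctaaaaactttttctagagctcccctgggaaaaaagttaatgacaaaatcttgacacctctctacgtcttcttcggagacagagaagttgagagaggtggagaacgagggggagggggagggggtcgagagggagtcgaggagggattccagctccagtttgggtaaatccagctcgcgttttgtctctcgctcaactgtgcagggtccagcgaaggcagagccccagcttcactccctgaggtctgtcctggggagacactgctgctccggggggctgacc
The KDM6B window holds 5 GC boxes and the TET3 window 3, the PRDM1 window holds 1 FOX core, and none of these motifs is in the TET1 window. Windows at other start sites of these genes differ, since the other window of KDM6B holds none of the motifs, that of PRDM1 a GC box and no FOX core, that of TET3 a CCAAT box and a GC box, and the other 2 of TET1 each hold 2 CCAAT boxes. Over 112 windows of 64 members, 62.5% hold a GC box, against 45.0% of 35116 windows of all genes, and the median G+C content was 66.5% against 58.7%. The FOX core is in 8.04% of the member windows and in 12.3% of all windows. A match is a description of the letters and not a site of binding, and different start sites of a gene can share bases.

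Expression of a gene is the sum of its input reads over its peaks, given in CPM after scaling by the trimmed mean of M values (TMM). Stages were compared over the 16 input libraries in edgeR, by its quasi-likelihood test with the cell line as a covariate, and p-values were adjusted over all genes by the method of Benjamini and Hochberg (BH). A difference was called where the adjusted p was under 0.1 and the size at least 2-fold, and its standard error is given as SE. Between S0 and S3, 8 members were called higher and 2 lower, or 10 of 78, where 28.8% of the 7973 tested genes were called (15.0% higher and 13.8% lower). The higher members were PRDM1, KDM6B, PRDM16, HDAC6, CHD3, TET3, ARID5B and the Y-linked member, and the lower ones were TET1 and SUV39H2. The median log2 fold change was 0.24 over the members and -0.02 over all genes. In 21 members every S3 library lay above every S0 library and in 5 every one lay below, where 16.9% and 16.5% of all genes did so. In these bulk samples fewer cells of a type and less RNA per cell cannot be told apart.

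**Figure D1:**
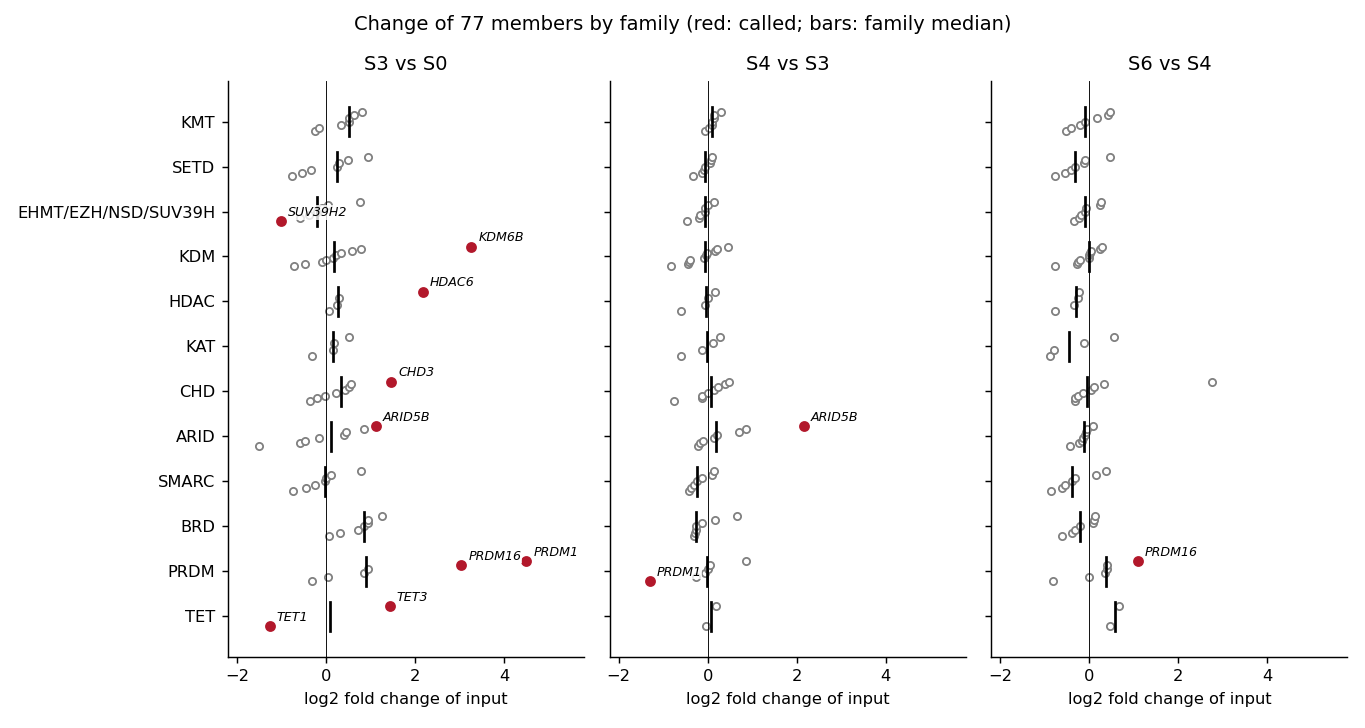
Log2 fold change in input expression of the 77 members by family (horizontal rows) for the steps from S0 to S3, from S3 to S4 and from S4 to S6, each point a gene and red points called genes. Most points lie between -1 and 1, and the PRDM, KDM, HDAC, CHD and TET families hold the members furthest to the right at the first step.

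KDM6B, a demethylase of the Polycomb mark H3K27me3, had 22.2 and 29.8 CPM in H1 and 20.4 and 20.9 CPM in MEL1 at S0. At S3 its levels were 151 and 133 CPM in H1 and 308 and 347 CPM in MEL1, so that the lowest S3 library stood well above the highest at S0 in both lines. The log2 fold change was 3.26 (SE 0.27, BH-adjusted p = 3.29e-07, edgeR), and the input counts of all 9 of its peaks moved the same way. KDM6B stayed high, with 247 and 232 CPM in H1 and 254 and 319 CPM in MEL1 at S4 and 229 to 284 CPM over the 4 libraries at S6.

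KDM6A, the X-linked enzyme with the same substrate, had 133 and 135 CPM in H1 and 141 and 126 CPM in MEL1 at S0, and 159, 171, 186 and 166 CPM at S3. Its S3 libraries all lay above those of S0, but the difference was small (log2 fold change 0.35) and was not called. In H1 the level was 76.8 and 68.0 CPM at S4 and 58.4 and 56.7 CPM at S6, whereas MEL1 had 134 and 121 CPM at S4. The change from S3 to S4 had a log2 fold change of -0.83 with an adjusted p of 0.0552 in edgeR after BH adjustment, under the 2-fold limit. No other demethylase described here was called at any step. KDM4A, which acts on H3K9 and H3K36, had a log2 fold change of -0.73 between S0 and S3, and KDM2A, an H3K36 demethylase, one of 0.79, neither of them at the 2-fold limit.

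**Figure D2:**
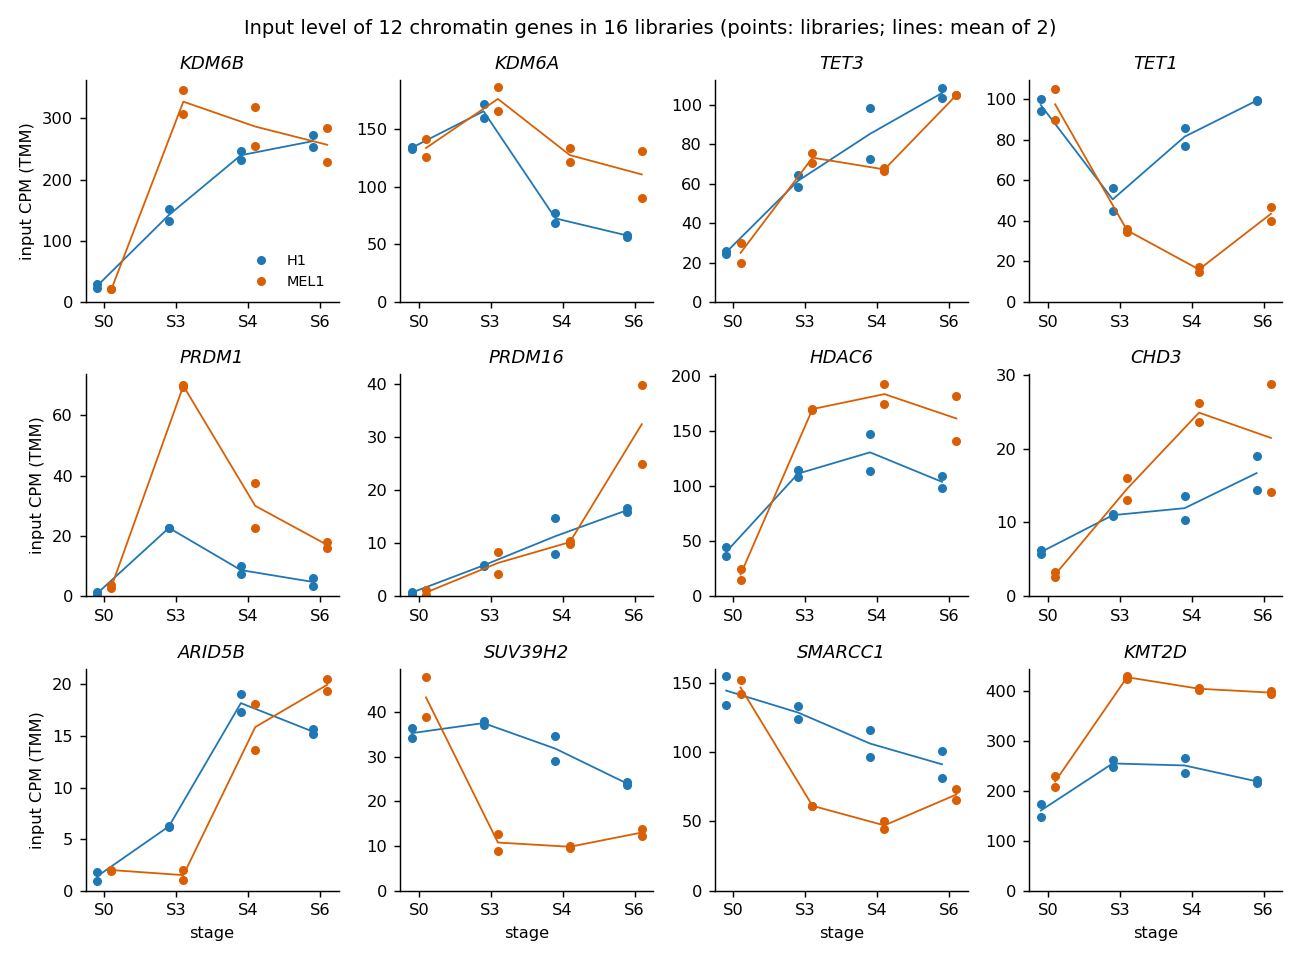
Input level in CPM of 12 named members at each stage, with one point per library, H1 and MEL1 in separate colours and 2 libraries per line and stage. KDM6B, TET3, PRDM1, PRDM16 and HDAC6 lie higher at S3 than at S0 in both lines, while ARID5B and SUV39H2 differ between the lines at S3.

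The DNA dioxygenases moved in opposite directions. TET3 had 26.1 and 24.3 CPM in H1 and 19.9 and 29.8 CPM in MEL1 at S0, 58.5 to 75.8 CPM over the 4 libraries at S3, and 104 to 108 CPM at S6. No S3 or S6 library overlapped with S0, and the log2 fold change was 1.43 at S3 (SE 0.17, BH-adjusted p = 1.47e-05, edgeR) and 2.07 at S6, both against S0. TET1, an abundant TET enzyme of pluripotent cells, had 94.2 and 100.04 CPM in H1 and 105 and 89.9 CPM in MEL1 at S0, and 44.9, 56.2, 34.5 and 36.1 CPM at S3. It fell by 1.27 on the log2 scale (SE 0.34, BH-adjusted p = 0.00745, edgeR), with no overlap and with all 13 peaks lower. In H1 alone the change of TET1 was -0.96, just under the 2-fold limit.

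The fall of TET1 did not last in H1. Its level was 77.03 and 86.0 CPM at S4 and 99.1 and 99.4 CPM at S6 in H1, back at the S0 level, and 14.7 and 17.3 CPM at S4 and 47.1 and 39.9 CPM at S6 in MEL1. The 2 lines therefore moved apart after S3. The step from S3 to S4 was 0.69 in H1 and -1.14 in MEL1 on the log2 scale, and the difference between them had an adjusted p of 7.09e-05 in edgeR after BH adjustment. At S4 the undifferentiated, proliferation and endocrine genes were also higher in H1 and the hepatic and mesenchyme genes higher in MEL1, as given above, and their part in this difference was not tested.

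PRDM1, known as BLIMP1, a repressor that acts in many endodermal and immune lineages, had the largest fold change of the members. Its S0 levels were 0.483 and 1.36 CPM in H1 and 3.70 and 2.61 CPM in MEL1, and its S3 levels 22.7 CPM in both H1 libraries and 70.1 and 69.3 CPM in MEL1. The stages did not overlap, with a log2 fold change of 4.50 (SE 0.30, BH-adjusted p = 2.78e-08, edgeR). It was then the one member called lower from S3 to S4, where it fell by 1.30 (SE 0.24, BH-adjusted p = 0.0148, edgeR) to 10.1 and 7.27 CPM in H1 and 37.4 and 22.5 CPM in MEL1. Without the cell line in the model this call was lost (adjusted p = 0.668). In each line its S4 libraries lay below those of S3, but the MEL1 libraries at S4 overlapped with the H1 libraries at S3.

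PRDM16, a regulator known from brown fat and stem cells, rose at 2 steps. It had 0.483, 0.909, 1.23 and 0.218 CPM at S0, 5.91 and 5.77 CPM in H1 and 4.25 and 8.35 CPM in MEL1 at S3, and 16.7 and 15.9 CPM in H1 and 25.0 and 39.9 CPM in MEL1 at S6. The log2 fold change was 3.04 at S3 against S0 (SE 0.46, BH-adjusted p = 0.000118, edgeR) and 1.09 at S6 against S4 (SE 0.36, adjusted p = 0.0884). The second step was the only member call between S4 and S6 and was lost when any of 6 single preparations was left out, which were H1 S4 replicate 1, H1 S6 replicate 1 and each of the 4 MEL1 preparations of those stages (log2 fold change 0.83 to 1.22, adjusted p from 0.105 to 0.248). It was also lost in H1 alone (0.49, adjusted p = 0.311), with the replicate number as a block (1.11, BH-adjusted p = 0.121, edgeR) and without the cell line in the model (adjusted p = 0.169). Without H1 S4 replicate 2 or H1 S6 replicate 2 there were 2 member calls at that step.

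HDAC6, a mostly cytoplasmic deacetylase that acts on tubulin, was measured over 1 peak. It had 44.4 and 36.2 CPM in H1 and 14.6 and 25.0 CPM in MEL1 at S0 and 114 and 108 CPM in H1 and 170.2 and 169 CPM in MEL1 at S3, without overlap. Its log2 fold change was 2.17 (SE 0.31, BH-adjusted p = 6.54e-05, edgeR). HDAC1, a catalytic subunit of NuRD and other corepressors, had a log2 fold change of 0.06 and was not called. CHD3, a remodelling ATPase of the NuRD complex, went from 6.28, 5.68, 3.29 and 2.61 CPM at S0 to 10.8, 11.1, 16.02 and 13.1 CPM at S3 without overlap, a log2 fold change of 1.47 (SE 0.37, BH-adjusted p = 0.00505, edgeR). In H1 alone the change of CHD3 was 0.86 and under the 2-fold limit.

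Of the 2 calls that differed most between the lines, ARID5B, an ARID protein that works with a histone demethylase, had 0.966 and 1.82 CPM in H1 and 2.06 and 1.96 CPM in MEL1 at S0. At S3 H1 had 6.31 and 6.18 CPM and MEL1 1.001 and 2.03 CPM, so that only H1 stood higher. Its call at S3 (log2 fold change 1.11, SE 0.46, BH-adjusted p = 0.0685, edgeR) was lost without any one of the 4 H1 preparations of S0 and S3 (adjusted p from 0.120 to 0.196) and with only the 8 libraries of both stages (adjusted p = 0.245). At S4 both lines were up, with 17.3 and 19.1 CPM in H1 and 18.1 and 13.6 CPM in MEL1. This was the only member called higher from S3 to S4 (log2 fold change 2.16, SE 0.41, BH-adjusted p = 0.0174, edgeR).

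SUV39H2, an H3K9 methyltransferase of silent heterochromatin, had 34.1 and 36.4 CPM in H1 and 47.7 and 38.7 CPM in MEL1 at S0. At S3 the H1 libraries stayed at 37.1 and 37.9 CPM and the MEL1 libraries were at 12.8 and 8.80 CPM. The pooled log2 fold change of -1.02 (SE 0.35, BH-adjusted p = 0.0302, edgeR) therefore came from MEL1, and it was no longer called without any one of the 4 MEL1 preparations of S0 and S3 (log2 fold change -0.93 to -0.74), nor without the cell line in the model (-0.70, adjusted p = 0.305) or with only the 8 libraries of both stages (-0.92, adjusted p = 0.118). By S6 both lines were below their S0 libraries, at 23.6, 24.3, 12.3 and 13.7 CPM. The proliferation genes were also lower in MEL1 than in H1 at S3, and their part in the values of SUV39H2 was not tested.

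Past S3 few members were called in the fit over both lines. From S3 to S4 their share was near that of all genes. This fit can miss members whose lines moved in opposite directions, such as TET1. From S3 to S4, 2 of 78 were called, 1 in each direction (1.84% of all genes, 1.49% higher and 0.351% lower), and from S4 to S6, 1 of 78, which was higher (5.18% of all genes, 2.85% higher and 2.33% lower). KAT5, the acetyltransferase TIP60, had 81.0 to 106 CPM over the S3 and S4 libraries and 55.4, 60.6, 61.2 and 55.7 CPM at S6, and all S6 libraries lay below all S4 libraries. Its log2 fold change of -0.80 had an adjusted p of 0.00483 in edgeR after BH adjustment and did not reach 2-fold.

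Over the whole course from S0 to S6, 11 members were called higher and 3 lower, or 14 of 78, where 31.4% of all genes were called (17.5% higher and 13.8% lower). PRDM16 (log2 fold change 4.99), KDM6B (3.47), ARID5B (3.34), CHD9NB (2.50), PRDM1 (2.38), HDAC6 (2.09), TET3 (2.07) and CHD3 (2.05) were higher by at least 4-fold. PRDM4, a zinc-finger member of the PRDM family, went from 22.7, 17.5, 45.2 and 32.9 CPM to 62.3, 63.3, 75.1 and 74.2 CPM without overlap (log2 fold change 1.26). KMT2E, a SET-domain protein that binds H3K4me3, went from 95.2, 97.3, 109 and 83.4 CPM to 255, 249.6, 169.9 and 159.7 CPM without overlap (log2 fold change 1.06). The calls of the neighbours CHD9NB and BRD3OS rested on one line or on few reads, since CHD9NB was high in MEL1 alone (43.7 and 34.7 CPM at S6, against 3.02 and 3.31 CPM in H1) and BRD3OS had at most 5.76 CPM in any library. CHD9NB was not called without any one of the 4 MEL1 preparations of S0 and S6 (adjusted p from 0.107 to 0.139) or with only the 8 libraries of both stages (adjusted p = 0.296), nor BRD3OS without H1 S0 replicate 1 or 2, H1 S6 replicate 2 or MEL1 S6 replicate 2 (adjusted p from 0.1 to 0.149). KMT2E was just under 2-fold without H1 S0 replicate 1 or 2 (log2 fold change 0.96 and 0.97) and with upper-quartile scaling (0.993). In MEL1 alone it was 0.73.

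The 3 members called lower at S6 were SETD6, a lysine methyltransferase known to modify non-histone proteins, SUV39H2 and SMARCAD1, a remodelling ATPase linked to heterochromatin. The call of SUV39H2 was lost without MEL1 S0 replicate 1 (log2 fold change -0.98), without the cell line in the model (-1.07, adjusted p = 0.108) and in H1 alone (-0.55). SETD6 had 15.2 and 15.69 CPM in H1 and 22.6 and 24.2 CPM in MEL1 at S0 and 8.70, 8.60, 6.72 and 4.44 CPM at S6, with no overlap (log2 fold change -1.45, SE 0.31, BH-adjusted p = 0.00154, edgeR), and in H1 alone it was -0.83 and under the 2-fold limit. SMARCAD1 had 26.8 and 24.8 CPM in H1 and 47.5 and 37.4 CPM in MEL1 at S0 and 20.2, 20.7, 19.4 and 12.1 CPM at S6. The levels did not overlap, but its log2 fold change of -1.02 fell short of a call without any of 5 single preparations (H1 S6 replicates 1 and 2, MEL1 S0 replicates 1 and 2 and MEL1 S6 replicate 2, -0.99 to -0.71), and also without the cell line in the model (-0.91) or with only the 8 libraries of both stages (-0.89), and was -0.33 in H1 alone (adjusted p = 0.127).

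Several families had no call from S0 to S3, where 28.8% of all genes were called and 3913 of 7973 had a positive log2 fold change. All 7 genes of the BRD series, one of them the neighbour BRD3OS with its few reads, had a positive one (median 0.86). None was called, among them BRD2, a reader of acetylated histones (0.86). None of the 7 KMT genes was called, with a median of 0.51. KMT2D, an H3K4 methyltransferase of enhancers, had 147 and 174 CPM in H1 and 207 and 230.5 CPM in MEL1 at S0 and 261, 249, 430.4 and 424 CPM at S3, which did not overlap. Its log2 fold change was 0.81. Of the 7 SMARC genes none was called at S3, and SMARCC1, a core subunit of BAF, had a log2 fold change of -0.73 with 155, 134, 152 and 141 CPM at S0, 124 and 133 CPM in H1 and 61.3 and 61.1 CPM in MEL1 at S3. No KAT and no SETD gene was called at S3 (medians 0.16 and 0.24), and SETD5 was lowest in its family (-0.77) and SETD1B highest (0.95).

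Paralogs that do the same work were compared within each library, where the depth and scaling of the library cancel. The ratio of the input counts of 2 genes depends on their lengths and peaks, so only its change is read. The log2 ratio of KDM6B to KDM6A went from -2.53 ± 0.26 at S0 to 0.34 ± 0.67 at S3 (SD, n = 4), that of TET3 to TET1 from -1.97 ± 0.34 to 0.67 ± 0.48, and that of CHD3 to CHD4 from -4.60 ± 0.88 to -2.84 ± 0.35. In each of these 3 pairs the S0 and S3 libraries did not overlap, which gives p = 0.0286 in a two-sided exact permutation test of 4 libraries against 4, the smallest of its 70 arrangements. Over the 21 comparisons of 7 pairs the exact permutation p adjusted to 0.15, and none passed 0.1. The pairs SMARCC2 to SMARCC1, KMT2C to KMT2D and SETD1B to SETD1A, had p from 0.0857 to 0.657 in the same exact permutation test.

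Between S0 and S3 the interaction of line and stage was called for 22 of 78 members, where 34.0% of all genes were called. The log2 change in MEL1 minus that in H1 was positive for 7 of the 22 and negative for 15 (16.5% and 17.5% of all genes). It was called for 6 members between S3 and S4, 3 in each direction (9.65% of all genes, 6.08% positive and 3.56% negative), and for 6 between S4 and S6, 4 positive and 2 negative (15.3%, 7.7% positive and 7.55% negative). The second number was 3 without H1 S3 replicate 2, and the third was 2 without H1 S6 replicate 2 and 3 without MEL1 S4 replicate 1. SMARCAD1 had 26.8 and 24.8 CPM at S0 and 58.3 and 52.7 CPM at S3 in H1, and 47.5 and 37.4 CPM and then 16.3 and 25.9 CPM in MEL1, so that the lines went opposite ways. The difference between the lines was -2.11 on the log2 scale (SE 0.34, BH-adjusted p = 5.97e-05 in edgeR for the interaction). CHD7, a remodeller mutated in a developmental syndrome, had 532 and 516 CPM at S3 in H1, above its 249.8 and 240.3 CPM at S0, and 247 and 224 CPM in MEL1, within its S0 range of 209 to 293 CPM (difference -1.19, and -0.93, which is under 2-fold, without MEL1 S0 replicate 1).

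KDM6B was among the 7 members with a positive difference, of 1.54 on the log2 scale, and so were HDAC6 (1.64), CHD3 (1.41, not called without H1 S0 replicate 1 or MEL1 S3 replicate 1), ARID3A (1.59) and the H4K20 methyltransferase KMT5C (1.65). ARID3A had 86.2, 86.9, 76.1 and 68.8 CPM in H1 and 87.6, 101, 224 and 250.5 CPM in MEL1, each for the S0 and then the S3 libraries, so that H1 stayed level. Among the 15 with a negative difference were KDM1A (-1.59), the eraser of H3K4 methylation LSD1, with 27.5 and 25.5 CPM at S3 in MEL1 against 98.9 and 105 CPM in H1, and the remodeller CHD1 (-1.59). Hepatic, proliferation and undifferentiated genes differed between the lines at S3 as given above, and their part in these differences was not tested.

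**Figure D3:**
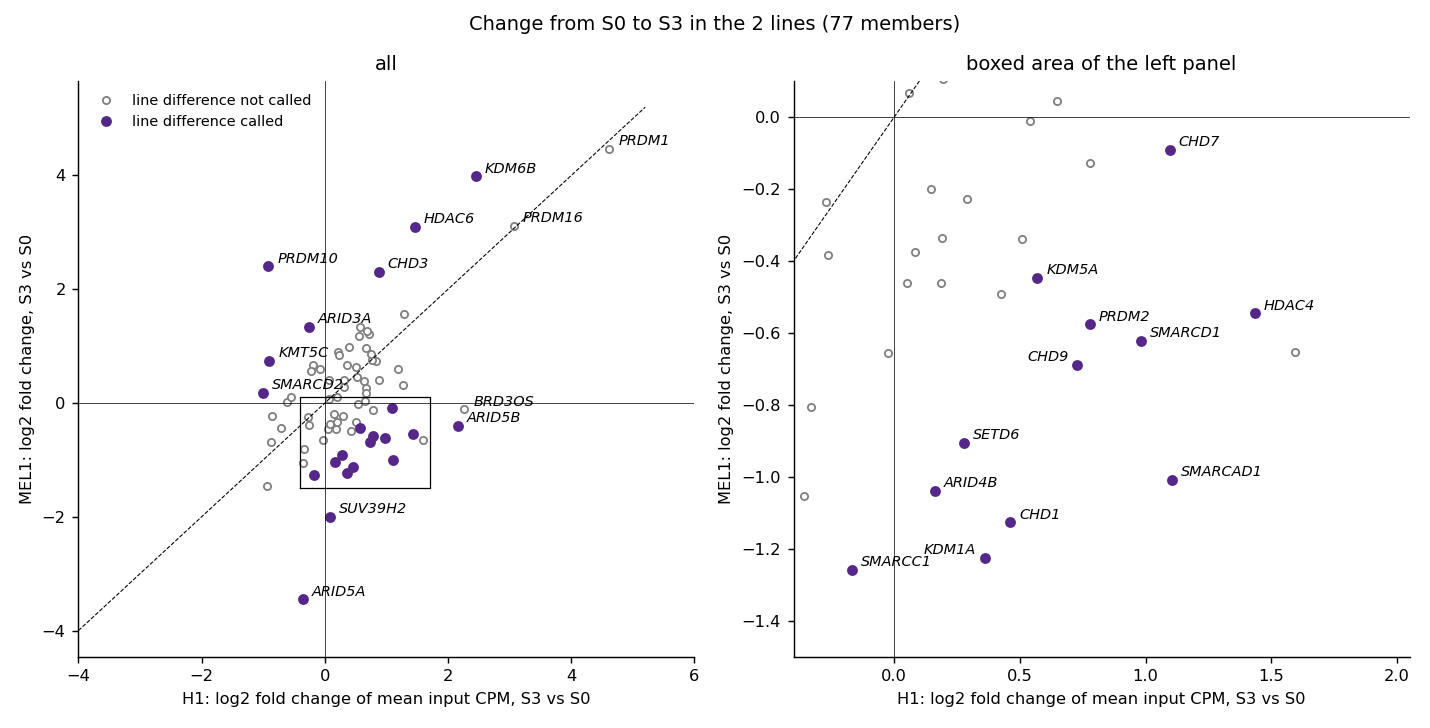
Log2 fold change in input expression from S0 to S3 in H1 (horizontal axis) and in MEL1 (vertical axis) for the 77 members, with a second panel that enlarges the centre and coloured points for a called difference between the lines. KDM6B, TET3, PRDM1 and PRDM16 lie high in both lines, while SMARCAD1, SUV39H2, CHD7, KDM1A and ARID5B lie lower in MEL1 than in H1.

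Partners of these enzymes in the same complexes were taken from a list of 77 genes, of which 54 had counts. From S0 to S3, 18 were called, 13 higher and 5 lower, or 33.3%, where 28.8% of all genes were called. ASXL1, a subunit of a Polycomb deubiquitinase, had a log2 fold change of 2.78, the chromatin remodeller SRCAP one of 1.32, and DNMT3B, the DNA methyltransferase of pluripotent cells, fell by 3.62. The smallest adjusted p-values at S6 against S0 belonged to ASXL1 (2.72), DNMT3B (-4.40) and CBX8 (2.62). At that comparison 10 partners were called higher and 8 lower, or 33.3%, where 31.4% of all genes were called.

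The m6A on these transcripts was read peak by peak, from IP relative to input. Members had more peaks than other genes, with a median of 4.5 against 2 per gene, and 39 of 78 had at least 5 peaks, against 23.4% of all genes. A peak was called enriched or depleted at a stage when IP differed from input at a BH-adjusted p under 0.1 and 2-fold in edgeR's quasi-likelihood test over the 32 libraries. Of 435 member peaks 101, 102, 80 and 91 were called enriched at S0, S3, S4 and S6, where 30.7%, 30.3%, 20.8% and 28.4% of all peaks were, and 108, 137, 148 and 164 were called depleted, where 24.9%, 31.0%, 32.1% and 34.6% were. These splits depend on how IP and input libraries are scaled to each other. With relative log expression (RLE) scaling, which moved the median of all peaks by -0.61, -0.64, -0.16 and -0.51 at the 4 stages, 53, 58, 59 and 63 member peaks were enriched (19.6%, 19.4%, 17.9% and 20.2% of all peaks) and 150, 174, 155 and 193 depleted (32.6%, 38.9%, 34.3% and 40.3%). Without mitochondrial genes, which moved that median by -0.38, -0.43, -0.07 and -0.25, 63, 76, 69 and 77 were enriched (23.4%, 22.9%, 19.3% and 24.1% of all peaks) and 133, 165, 152 and 174 depleted (29.3%, 36.1%, 33.1% and 37.2%).

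Enrichment at all 4 stages was found in 49 peaks of 32 members, or 11.3% of their peaks against 14.9% of all peaks, and depletion at all 4 stages in 86 peaks, or 19.8% against 19.4%. By family, PRDM transcripts had 8 of 28 peaks enriched at all 4 stages and none depleted at all 4, while the SMARC transcripts had none of 17 peaks enriched at any stage and 12 of 17 depleted at all 4. KDM transcripts had 26 of 65 peaks depleted at all 4 stages and 6 enriched, HDAC transcripts 3 of 8 and 1, and TET transcripts none of 23 and 2. With RLE scaling the PRDM count was 3 enriched and none depleted, the SMARC count none and 13, and the KDM count 3 and 30. These families were singled out after their values were seen. Peaks of one transcript share its RNA and are not independent, and no test of the families was made.

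The member peaks with the highest mean ratio of IP to input lay in KDM8, CHD7 and KMT5B. The peak at position 3051 of KDM8, a JmjC-domain protein, had a log2 ratio of IP to input of 3.44, 3.58, 4.19 and 2.47 at S0 and between 2.28 and 3.81 over the other 12 preparations, so that no preparation stood near 0. These ratios of single preparations are of CPM with 0.5 added to both. The peak at 14101 of CHD7 ran from 2.45 to 4.15 over the 16 preparations. At the other end, the lowest fitted ratios were those of peaks 6646 and 4346 of SMARCC1 and 6501 of KDM3B, an H3K9 demethylase. The first had 52, 50, 47 and 44 input reads at S0 and 5, 3, 15 and 27 IP reads, and at most 4 IP reads in any later library.

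No member peak was called changed in m6A between S0 and S3 (0.0498% of all peaks were called, 0.0306% higher and 0.0192% lower), with 25 member peaks at an unadjusted p under 0.05 in edgeR's quasi-likelihood test, where 6.19% of all peaks had one, and 3 called by DESeq2 (0.64% of all peaks). From S3 to S4, 2 member peaks were called higher and 31 lower in 22 genes (33 peaks, where 6.6% of all peaks were called, 0.751% higher and 5.85% lower). From S4 to S6 24 were called higher in 16 genes and 10 lower in 9 genes (7.58% of all peaks, 5.31% higher and 2.26% lower). From S0 to S6 none was higher and 5 in 4 genes were lower (1.26% of all peaks, 0.0766% higher and 1.18% lower).

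The direction of these splits depended on scaling. The median log2 m6A change of all peaks from S3 to S4 was -0.36 with TMM and 0.12 with RLE, and from S4 to S6 it was 0.19 and -0.15. With RLE, 3 member peaks were called higher and 6 lower from S3 to S4 (1.05% and 1.28% of all peaks) and 10 higher and 21 lower from S4 to S6 (2.8% and 3.61%). With DESeq2 the numbers were 25 and 19 (4.11% and 3.63%) and 18 and 52 (4.99% and 8.22%). With the replicate number as a block, 22 member peaks were called from S4 to S6 and none from S0 to S6. All 31 peaks lower at S4 kept a negative sign with RLE, but 6 of them were still called, and of the 24 higher at S6 against S4, 10 were. The 2 peaks called higher at S4 and all 10 called lower at S6 against S4 kept their calls. RLE moved the median of all peaks in the direction of these calls, so their being kept says little of stability. At S4 the median log2 ratio of IP to input over all genes was 0.72 and 0.58 in the H1 preparations and 0.01 and 0.03 in the MEL1 preparations, where the IP libraries were shallowest, and the part of that in the calls was not tested. With single preparations left out, the number of member calls from S3 to S4 was 5 without H1 S4 replicate 1, 16 and 12 without H1 S3 replicates 1 and 2, and 21 and 14 without MEL1 S3 replicates 1 and 2. From S4 to S6 it was 12 and 14 without H1 S6 replicates 1 and 2 and 16 and 13 without MEL1 S6 replicates 1 and 2. These counts with preparations left out stand without the share of all peaks and show only how the count moved. Without both MEL1 S4 preparations, a choice made after the data were seen, 106 member peaks were called from S3 to S4 and 91 from S4 to S6 (20.9% and 19.2% of all peaks).

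KMT5B, an H4K20 methyltransferase, had the member peak with the smallest adjusted p. At position 3083, the third of its 7 peaks, the log2 ratios were 3.88 and 4.11 in H1 and 3.28 and 3.61 in MEL1 at S3, 1.34, 0.85, 2.38 and 1.25 at S4, and 3.08, 3.28, 3.06 and 2.85 at S6. The S4 preparations lay below all others in both lines. The log2 change from S3 to S4 was -2.30 (SE 0.35, BH-adjusted p = 0.00065, edgeR), or -1.78 with RLE, and that from S4 to S6 was 1.65, or 1.25 with RLE. The peak was enriched at every stage. The change from S3 to S4 was called under every alternative tried and without each preparation.

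KMT2E, with 8 peaks, showed the same course in its last 2, and its second peak was lower at S6 than at S4. At 8051 the log2 ratios were 2.59, 2.82, 2.82 and 2.35 at S3, 0.40, -0.83, -0.51 and 0.68 at S4, and 2.72, 2.48, 1.63 and 1.60 at S6, with S4 apart from both. The changes were -2.83 (SE 0.53, BH-adjusted p = 0.00393, edgeR) and 2.32 (SE 0.53, BH-adjusted p = 0.0136, edgeR). At 7001 the change from S3 to S4 was -2.73 (-3.93 in H1 alone and -1.76 in MEL1 alone), and without H1 S4 replicate 1 it was -1.82 and not called. At 3451 the ratios were -1.10, -0.92, -0.42 and 0.08 at S4 and -3.39, -2.90, -2.66 and -3.56 at S6, without overlap. That change of -3.36 (SE 0.85, BH-adjusted p = 0.0260, edgeR) had the opposite sign to that at 8051 over the same step. The peak at 3451 had at most 36 IP reads in a library of S4 and 13 in one of S6. In MEL1 alone neither change was called in edgeR (-3.48 at 3451, BH-adjusted p = 0.141, and 1.52 at 8051, BH-adjusted p = 0.126).

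NSD3, an H3K36 methyltransferase, had its last peak of 9 at 13753, with log2 ratios of 1.38, 1.59, 0.83 and 1.15 at S3, -2.15 and -1.88 in H1 and 0.14 and 0.18 in MEL1 at S4, and 1.87, 1.87, 1.53 and 1.31 at S6. The S4 preparations lay below the others, those of H1 by far the most. The rise from S4 to S6 was 2.44 (SE 0.49, BH-adjusted p = 0.00649, edgeR), while the fall from S3 to S4 was -2.01 and was no longer called with RLE (-1.47) or without H1 S4 replicate 1 (-1.16).

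The 2 peaks called higher at S4 than at S3 were both depleted in IP at every stage. The peak at 1601 of KDM4A, the first of 8, had log2 ratios of -3.88, -3.33, -5.29 and -4.19 at S3 and -1.83, -1.87, -3.20 and -2.23 at S4, which did not overlap. Its change was 2.35 (SE 0.52, BH-adjusted p = 0.0137, edgeR), or 2.77 with RLE, which moved the median of all peaks upward at this step. The peak at 4751 of BRD2 changed by 2.12 and lost its call without H1 S3 replicate 1 or 2 or MEL1 S3 replicate 2 (adjusted p from 0.115 to 0.128). It had at most 62 IP reads in a library of S4 and 30 in one of S3.

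**Figure D4:**
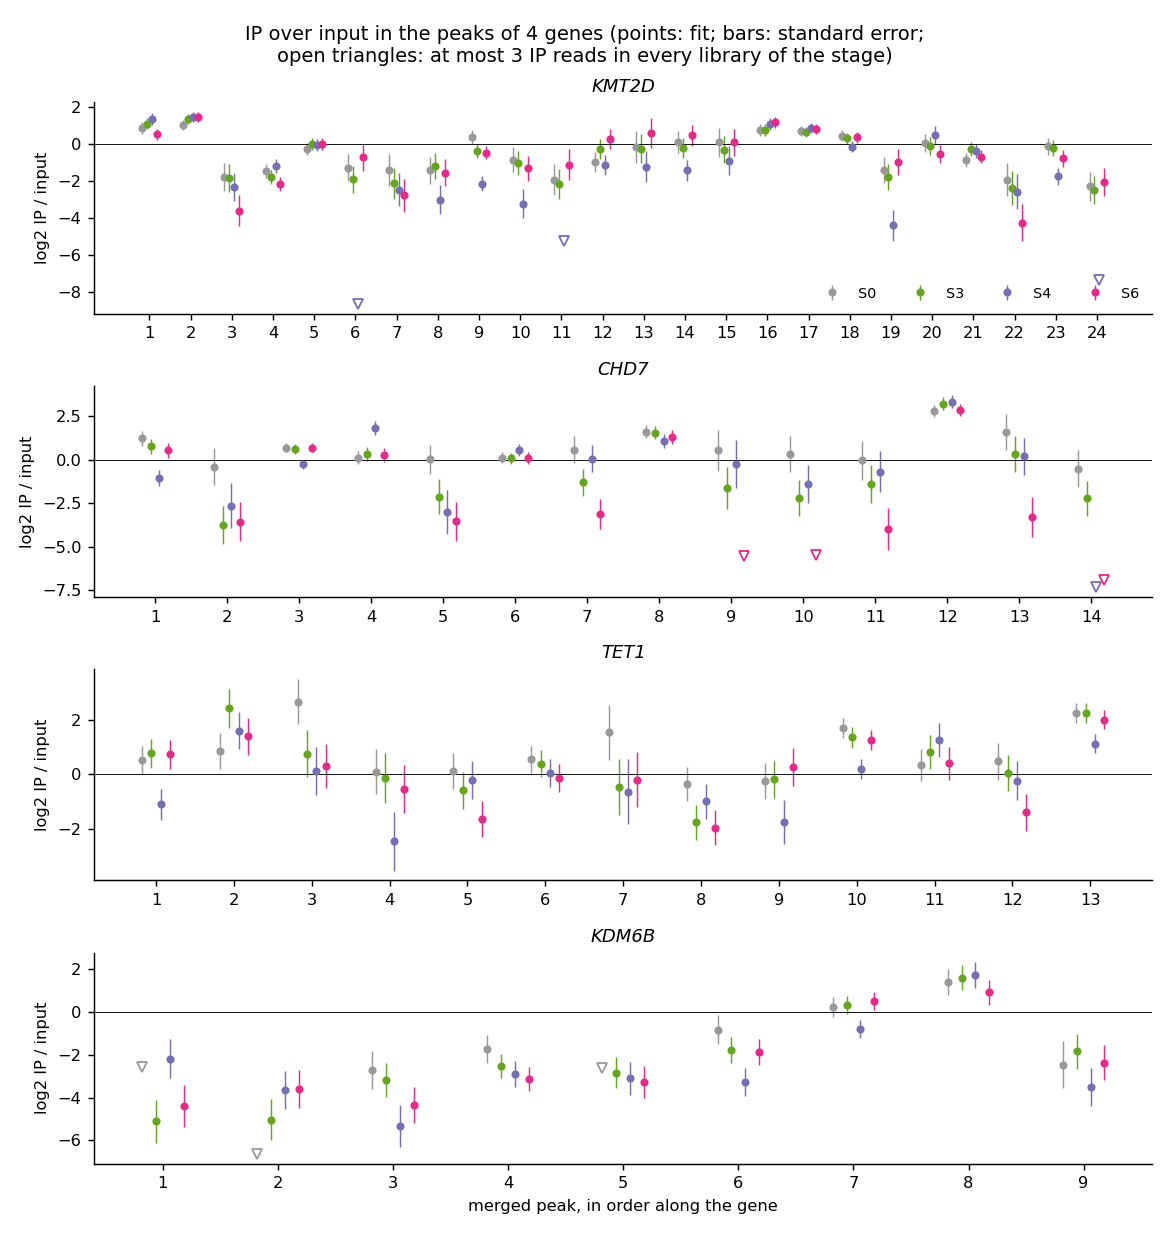
Fitted log2 ratio of IP to input with its SE along the peaks of KMT2D (24 peaks), CHD7 (14), TET1 (13) and KDM6B (9), in the order of their position in the transcript and coloured by stage. Open triangles are peaks with at most 3 IP reads in each library of the stage, whose fitted value depends on the prior count, and S4 values of KMT2D lie below the other stages at several peaks.

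KMT2D, with 24 peaks the most of any member, had a peak at 6686 without a single IP read at S4 against 23, 38, 17 and 11 input reads. At S3 it had 23, 29, 61 and 11 IP reads and at S6 19, 21, 31 and 20, from 48, 36, 24 and 36 and from 19, 12, 5 and 8 input reads. It was called lower at S4 than at S3 (BH-adjusted p = 0.0148, edgeR) and higher at S6 than at S4 (BH-adjusted p = 0.00452, edgeR), and no fold is given because every S4 IP library was at 0. The first of these calls was lost without H1 S4 replicate 1 (adjusted p = 0.111). Low counts marked several of the calls. In 8 of the 31 peaks lower at S4, in 8 of the 34 called between S4 and S6 and in 4 of the 5 lower at S6 than at S0, one of the stages had at most 3 IP reads in each library.

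Among the 5 peaks lower at S6 than at S0, that at 79 of HDAC7 had 40, 34, 469 and 443 IP reads at S0 and 1, 2, 1 and 0 at S6. The peak at 9601 of KMT2B, an H3K4 methyltransferase, had 2, 3, 10 and 31 IP reads at S0 and at most 1 at S6. At 4701 of KDM4A, the one without such low counts, the log2 ratios were -2.11, -2.03, -1.75 and -1.23 at S0 and -3.61, -3.64, -3.76 and -3.77 at S6. That change was -2.41 (SE 0.60, BH-adjusted p = 0.0725, edgeR) and was lost with RLE (adjusted p = 0.106). None of the 5 calls remained when either S6 preparation of H1 or any S0 or S6 preparation of MEL1 was left out, since the number of member calls was then 0.

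Of the 75 peaks of the 15 described members called in expression at any step, 9 peaks in 5 genes were called changed in m6A in at least one of the 4 comparisons by edgeR's quasi-likelihood test, beside 43 of the 360 peaks of the other members and 2863 of all 26104 peaks, so that the 3 shares were close. These genes were KMT2E with 5 peaks and ARID5B, CHD9NB, PRDM4 and SETD6 with 1 each. The first peak of ARID5B, at 4101, had 25 and 23 IP reads in H1 and 9 and 14 in MEL1 at S3, and 2, 1, 0 and 6 at S4, from 9, 14, 15 and 9 input reads, and it was called lower from S3 to S4 and higher from S4 to S6. With RLE neither call held (adjusted p = 0.117 and 0.127). No call fell on the 9 peaks of KDM6B, 10 of TET3, 13 of TET1, 3 each of PRDM1 and PRDM16, 2 of CHD3 and 1 of HDAC6. In simulated data the m6A test of S4 against S3 found 48 of 100 peaks changed 8-fold. The lack of a call therefore does not show a lack of change in these transcripts. These transcripts differed in IP relative to input. KDM6B had 6 depleted peaks at S0 and 7 at each later stage, with at most 1 enriched, whereas TET3 had no depleted peak and 3, 4, 2 and 3 enriched ones at S0, S3, S4 and S6. Of the 3 peaks of PRDM1, 2 were enriched at S0, 3 at S3 and 2 at S4 and S6.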

How the data were processed

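The authors called m6A peaks with MeRIPtools from reads binned along annotated genes and merged them across samples. The values deposited are raw read counts for every merged peak in every library, not normalized. The sources used here do not give the aligner, genome build or strand setting. Peaks are named by the position listed within their gene. The 16 input and 16 IP libraries were grouped by the labelled line and stage, and no column of the table was left unused.

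The input count of a gene was summed over its peaks, and genes and peaks with a total of at least 10 were tested in R 4.3.3 with edgeR 4.0.16 (quasi-likelihood test, TMM, Benjamini-Hochberg adjustment). The call was an adjusted p under 0.1 and at least 2-fold. The study used DESeq2 (1.42.0 here, as an alternative). Expression was fitted with stage and line, line differences as their interaction, and m6A changes as the stage by library type interaction with the line. Standard errors are |log2 fold change| divided by the root of F. Ratios of single preparations add 0.5 CPM to both values, and paralog ratios add 0.5 counts to both. The tests were tried on simulated data first. The expression test of S3 against S0 found 95 of 100 genes changed 4-fold and 100 of 100 changed 8-fold. The m6A test of S4 against S3 found 19 of 100 peaks changed 4-fold and 48 of 100 changed 8-fold. A peak without an m6A call is therefore not shown to be unchanged.

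The named genes were the paralog pairs, up to 6 called members per direction and comparison with the smallest adjusted p, the highest and lowest member of each family at S3 against S0, up to 3 called peaks per direction and comparison, up to 3 line differences per step, and the 3 peaks highest and lowest in mean IP over input. Values of other members stand in the text as examples chosen after they were seen. The members and the lists of partners and markers were chosen with earlier results of these data known. Promoters come from RefSeq (GRCh38.p14). Depth limits precision, and counting error is only part of the spread between replicates. Values of some genes and of 1 paralog pair are not reported here.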

Additional observations from a re-analysis of the deposited data

Results flagged for a closer look

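In 9 of 192 sets of 4 libraries of one stage, the highest or lowest input level of a named member stood apart from the other 3 by Dixon's test. The test was set at a level of 1 set in 20 for 4 like libraries. Each set held 2 libraries of each line, and the lines differed, so the number that chance gives is not known here. The high libraries were ARID5A at S4 (4.06 CPM), HDAC1 at S4 (41.7 CPM), PRDM11 at S4 (5.21 CPM) and SETD1B at S6 (98.4 CPM). The low ones were EZH1 at S6 (16.9 CPM), KAT2A at S6 (69.5 CPM), KAT5 at S0 (44.2 CPM), SMARCAD1 at S6 (12.1 CPM) and SMARCD1 at S0 (5.23 CPM).

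For 21 changes of named members, edgeR's interaction test (quasi-likelihood, BH-adjusted over all genes) called a difference between MEL1 and H1, given here as the log2 change in MEL1 minus that in H1. From S0 to S3 the difference was positive for KMT5C (1.65), HDAC6 (1.64), KDM6B (1.54) and CHD3 (1.41). It was negative for ARID5A (-3.03), ARID5B (-2.51), SMARCAD1 (-2.11), SUV39H2 (-2.10), SMARCD1 (-1.61), CHD1 (-1.59), CHD7 (-1.19), SETD6 (-1.18) and SMARCC1 (-1.09). From S3 to S4 it was 4.31 for ARID5A, 1.80 for ARID5B, -1.11 for BRD1 and -1.83 for TET1. From S4 to S6 it was -3.70 for ARID5A, 6.48 for CHD9NB, 1.01 for SETD5 and 1.15 for TET1.

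ARID5A had at most 4.06 CPM in any library, and its 3 differences rest on few reads. The differences of SETD6 and SMARCD1 from S0 to S3 were each lost without any of 3 single preparations, namely H1 S0 replicate 1, H1 S3 replicate 1 or MEL1 S3 replicate 1 for SETD6 (adjusted p from 0.103 to 0.133), and H1 S0 replicate 2, H1 S3 replicate 2 or MEL1 S3 replicate 2 for SMARCD1 (adjusted p from 0.112 to 0.191). That of ARID5B from S3 to S4 was lost without H1 S3 replicate 1 or 2, MEL1 S3 replicate 1 or MEL1 S4 replicate 1 (adjusted p from 0.106 to 0.191). The differences of SMARCC1, BRD1, SETD5 and TET1 (S4 to S6) were near the 2-fold limit and fell under it without H1 S0 replicate 2 (SMARCC1, -0.999), H1 S4 replicate 1 (BRD1, -0.94), MEL1 S4 replicate 1 (TET1, 0.99) and, for SETD5, 6 of the single preparations of S4 and S6 (0.93 to 0.999).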

How the results depend on the processing

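With 2 replicates per line and stage, most numbers of calls moved with the choices. The counts of members below stand without the share of all genes in the same fit. They show only how the count moved and are not a trait of the members. The number of called members was 22 at S3 and 24 at S6, both against S0, in MEL1 alone. From S3 to S4 it was 1 without the cell line in the model and 4 in H1 or in MEL1 alone, and from S4 to S6 it was 2 with DESeq2, 0 without the cell line, 0 with a replicate block, 2 in H1 alone and 6 in MEL1 alone. Leaving out single replicates gave 9 to 12, 2 to 2, 0 to 2 and 11 to 17 called members at S3 against S0, S4 against S3, S6 against S4 and S6 against S0, and 18 to 24, 3 to 6 and 2 to 6 line differences at the 3 steps. No paralog ratio passed under any such choice (0 to 0), which says nothing of stability, since p in these small designs could hardly pass the adjustment over 21 comparisons. The ratios were not tested in one line alone.

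For m6A the counts are of member peaks, and they stand here without the share of all peaks under the same choice. They show only how the count moved and are not a trait of the members. S3 against S0 had 3 called peaks with DESeq2, 22 in H1 alone and 38 in MEL1 alone. S4 against S3 had 10 with TMM within library type, 9 with RLE, 20 without the cell line, 1 when reads were summed per gene, 213 in H1 alone, 53 in MEL1 alone and 106 without both MEL1 S4 preparations. S6 against S4 had 70 with DESeq2, 19 without the cell line, 22 with the replicate block, 7 per gene, 171 in H1 alone, 52 in MEL1 alone and 91 without both MEL1 S4 preparations. S6 against S0 had 39 with DESeq2, 48 in H1 alone, 51 in MEL1 alone and 0 with TMM within library type, RLE, no cell line, the replicate block, the preparation block and sums per gene. Single replicates left out gave 0 to 0, 5 to 46, 12 to 49 and 0 to 6 calls in the 4 comparisons. Peaks enriched or depleted in IP numbered 174 to 197, 210 to 225, 197 to 225 and 237 to 243 at S0, S3, S4 and S6 in the same way, and genes with summed reads 31, 33, 31 and 26. The cause of these differences was not tested, except that a sum per gene tests fewer features.

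Directions reversed for ARID5B at S3 against S0 in MEL1 alone (-0.43), SMARCAD1 (1.09) and SUV39H2 (0.0708) at S3 against S0 in H1 alone, CHD9NB in H1 alone at S6 against S4 (-1.21) and against S0 (-1.25), and the HDAC7 peak at 79 at S6 against S4 in H1 alone (1.74) and without both MEL1 S4 preparations (1.02). Apart from these reversals, of 3644 values of expression 49 lost and 46 gained a call and 144 that were not called changed sign. Of 252 line differences 44, of 397 m6A changes 76 and of 697 IP to input values 27 lost a call. Deviations of same-numbered libraries from their group means correlated from 0.16 to 0.24 over the 6 pairs of stages in MEL1 and from -0.07 to 0.08 over the 6 in H1. The replicate numbers therefore hint at a pairing in MEL1 and not in H1, and the labels give no source of one. Among named genes and peaks, the replicate block lost the calls of PRDM16 at S6 against S4, the ARID5A line difference from S0 to S3 and, for m6A, HDAC7 at 79 and BRD2 at 4751 at S6 against S4 and of HDAC7 at 79, KDM4A at 4701 and KMT2B at 9601 at S6 against S0 (adjusted p from 0.103 to 0.121). The chi-square per gene between replicates ran from 1.78 to 66.9, so no pair was a single library deposited again.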
